A study of Mus musculus with 4 samples.

Results

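Transcripts for the proteins that carry out and steer pre-mRNA splicing were followed in the newborn mouse cochlea after a short exposure to gentamicin, an aminoglycoside antibiotic that kills sensory hair cells. The genes were taken from the deposited score tables by symbol: every row whose name begins with Srsf, Hnrnp, Sf3a, Sf3b, Snrnp, Snrp, Prpf or U2af in the pattern of those gene families. That gave 72 of 23420 genes, all of which passed the read minimum. By name they fell into 11 SR proteins, 18 hnRNPs, 19 snRNP proteins, 8 SF3 subunits, 13 PRPF proteins and 3 U2AF genes.

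Cochleae came from Atoh1-GFP transgenic mice on a CD1 background at postnatal day 1, in which a reporter driven by the Atoh1 enhancer marks hair cells. After a night in culture the organs were left untreated or exposed for 3 h to the drug at 0.5 mM, and GFP-positive hair cells (HC) and GFP-negative non-hair cells (NHC) were sorted from them. All 4 groups (HC control, HC gentamicin, NHC control, NHC gentamicin) therefore carried the transgene and went through the same culture and sort, and each had 3 replicates. The NHC sort is a mixture of supporting cells, other epithelium and surrounding tissue rather than a cell type. Nothing in the labels says whether replicates came from separate litters, so p-values measure the spread between these samples, which may be partly technical.

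Splicing removes introns through the spliceosome, which is built from RNA-protein particles called snRNPs. U1 snRNP marks the start of an intron, U2AF and U2 snRNP with its SF3A and SF3B subcomplexes mark its end and branch point, and the U4/U6.U5 tri-snRNP joins before catalysis. SR proteins bind exons and usually favour their inclusion, whereas hnRNPs coat the nascent transcript and often oppose it. Hair cells depend on regulated splicing: Srrm4, an SR-related protein, drives a neural and sensory exon program, and its loss causes deafness in mice.

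Values are the deposited scores, which are read counts scaled by the authors with 1 added and with no division by transcript length. Depth recovered from the scores lay between 22398633 and 28149165 reads on genes per replicate. The least covered member in any replicate, Snrnp35, still had 112 reads there, so counting error was small for nearly all members. The summed score of 10 hair cell markers was 12440 to 12880 in HC controls and 246.7 to 270.9 in NHC controls, and 10 of 10 were higher in HC. Supporting cell markers did not follow the sort: 10 of them summed to 2084 to 2440 in HC controls and 1332 to 2035 in NHC controls, with 4 higher and 1 lower in HC. All 8 mesenchyme and all 6 endothelium markers were lower in HC. Hair cell replicates lay close together, whereas NHC replicates differed more. The root mean square distance of a replicate from the mean of the others was 0.192 to 0.294 log2 units over all tested genes in HC and 0.231 to 0.432 in NHC, with NHC gentamicin replicates 2 and 3 and NHC control replicate 1 the farthest out (0.432, 0.394 and 0.366).

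The first question was how gentamicin changed these transcripts in hair cells. A gene was called when its unadjusted limma p was below 0.01 and its fold change above 1.2. SR proteins and PRPF proteins rose most often, most hnRNPs and all Sm core proteins were not called, and the 2 members that fell both belong to U1 snRNP. Of the 72 members, 19 rose and 2 fell. Over all 16087 tested genes 12.7% rose and 14.8% fell, so the members' share that rose (26.4%) was above the background and the share that fell (2.78%) below it. Their median log2 fold change was 0.12, against -0.09 for all tested genes. When scores were scaled instead by total reads, the split over all called genes moved from 46.1% up to 63.6% up, the median of all genes moved to -0.01, and 26 members rose and 2 fell.

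The families differed in how many members moved. Among SR proteins 5 of 11 rose and none fell, with a median log2 fold change of 0.41. Of their values 10 of 11 were above 0, beside 6449 of 16087 tested genes. Among PRPF proteins 6 of 13 rose and none fell, with a median of 0.22. Among hnRNPs 3 of 18 rose and none fell, and the median was 0.02. Among snRNP proteins 4 of 19 rose and 2 fell, and the median was -0.02. For SF3 subunits the count was 1 of 8 and the median 0.13, and no U2AF gene was called. Under total-read scaling each family median was higher, and that of snRNP proteins became positive at 0.07. In 35 members all HC gentamicin replicates were above all HC controls, and in 9 all were below, where 21.7% and 33.1% of tested genes showed such separation. Leaving out single HC replicates turned the sign of the hnRNP median without HC control replicate 2 (-0.05, highest 0.09 without HC control replicate 3) and of the snRNP median without HC gentamicin replicate 2 (0.01, lowest -0.07 without HC gentamicin replicate 1). No test was made between families.

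**Figure D1:**
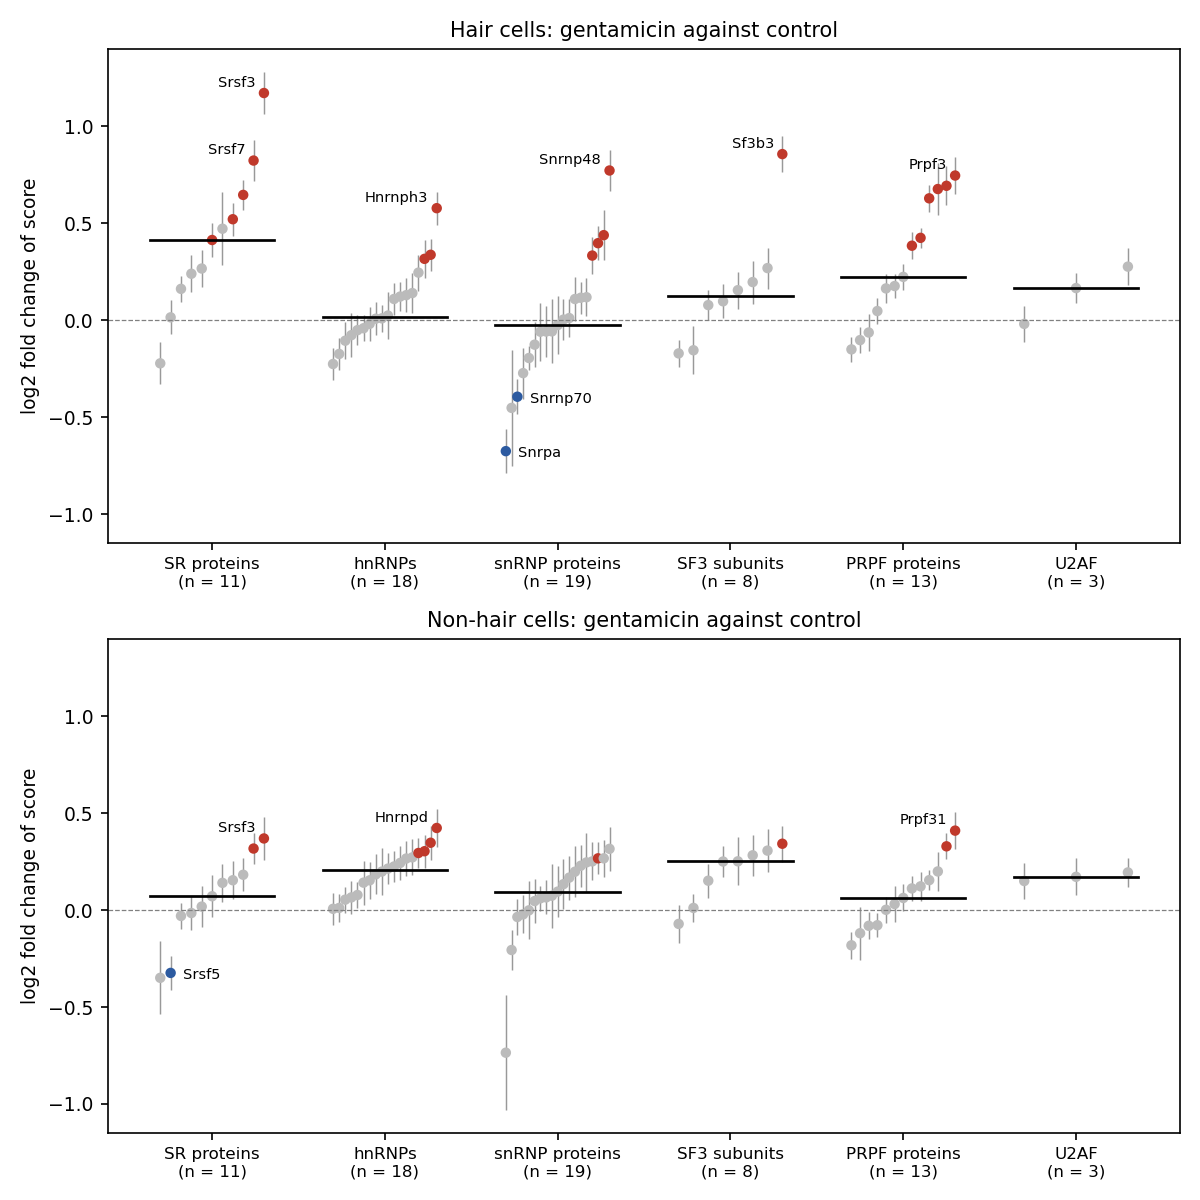
Log2 fold change of the score with gentamicin (vertical axis, with standard error) for each of the 72 genes, by family, in hair cells above and non-hair cells below. Red points were called up, blue points called down and grey points not called, and the black bar is the family median, 0.41 for SR proteins and 0.02 for hnRNPs in hair cells.

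Srsf3 encodes the smallest SR protein, which acts in splicing, mRNA export and polyadenylation. It lies at chr17:29032628-29043373 on the plus strand of mm10 and rose more than any other member. Its scores were 182, 160 and 210 in HC controls and 437, 431 and 371 in HC gentamicin. The groups did not overlap. The fold change was 2.25 (log2 1.17 ± 0.11 SE, adjusted p = 5.6e-05). In NHC the scores were 235, 199 and 221 without drug and 261, 289 and 295 with it, again without overlap, and the change was 1.29-fold (adjusted p = 0.137). The NHC call was lost without NHC control replicate 2 or 3 or NHC gentamicin replicate 2 or 3, with log2 values of 0.30, 0.38, 0.35 and 0.33.

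Srsf7, the closest relative of Srsf3, at chr17:80200080-80207307 on the minus strand, had scores of 111, 108 and 137 in HC controls and 223, 215 and 191 in HC gentamicin. All treated replicates were above all controls, a change of 1.77-fold (log2 0.82 ± 0.11 SE, adjusted p = 0.000305). In NHC the scores were 157, 141 and 143 without drug and 142, 168 and 138 with it. These overlapped, and the log2 fold change was 0.02 ± 0.11.

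Srsf2, also known as SC35, an SR protein that binds exonic enhancers, scored 199, 200 and 207 in HC controls and 312, 336 and 301 with gentamicin. This was a rise of 1.57-fold (adjusted p = 0.000197). Exons of Mettl23 and Mfsd11 on the other strand overlap those of Srsf2, and the counting is not stated to use strand, so reads of these genes cannot be told apart here. Srsf6 scored 274, 261 and 310 in controls and 389, 427 and 394 with drug, a rise of 1.44-fold (adjusted p = 0.00104). Srsf11 was the fifth SR gene that rose, by 1.33-fold from a mean of 126 ± 4.55 (SD, n = 3) to 168 ± 8.53.

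Srsf1, the founding SR protein, did not follow them. Its scores were 231, 230 and 293 in HC controls and 208, 201 and 234 with gentamicin, and the groups overlapped (log2 fold change -0.22 ± 0.11, adjusted p = 0.137). It was the only SR gene with a negative value in hair cells. Srsf5, the SR gene with the highest score per kilobase of transcript, had 342, 369 and 368 in controls and 363, 405 and 325 with drug, a log2 fold change of 0.01 ± 0.09. Srsf4, Srsf9, Srsf10 and Srsf12 had log2 values between 0.16 and 0.47 and were not called. Summed over the family, the score was 1700.6 to 1912.0 in HC controls and 2273.2 to 2482.0 in HC gentamicin replicates.

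Snrpa and Snrnp70 encode proteins that bind the small nuclear RNA of U1 snRNP directly. Snrpa, at chr7:27187005-27196271 on the minus strand, scored 69.4, 65.8 and 61.7 in HC controls and 39.8, 37.4 and 46.4 with gentamicin. It fell by 0.68 on the log2 scale (SE 0.11, adjusted p = 0.00136), with every treated replicate below every control. Exons of BC024978 on the other strand overlap it. Snrnp70, at chr7:45376453-45395742 on the minus strand, scored 183, 195 and 217 in controls and 141, 144 and 168 with drug. It fell by 0.39 (SE 0.09, adjusted p = 0.00727), also without overlap. The third U1 protein, Snrpc, scored 36.1, 35.1 and 33.0 against 34.1, 30.6 and 30.8, which overlapped (log2 fold change -0.13 ± 0.11, adjusted p = 0.431).

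Promoter windows of these genes are shown because Srsf3 and Srsf7 rose together while Snrpa and Snrnp70 fell. RefSeq windows (GRCm38.p6, the assembly of mm10) were found for 63 of the 72 genes, and the 250 bases before the first listed start were searched on both strands. Each is printed on the gene's own strand up to the start of the annotated gene. Capitals mark matches, read in either direction, to the CCAAT box (CCAAT), the GC box (GGGCGG), the core of ETS factor sites (CCGGAAG), the core of NRF1 sites (GCATGCGC), the cAMP response element (TGACGTCA), the AP-1 element (TGANTCA, with any base at N) and the TATA box (TATAAA). A stretch in capitals can hold overlapping matches. The windows are chr17:29032410-29032627 (plus strand), chr17:80207308-80207555, chr7:27196272-27196521 and chr7:45395743-45395992 (minus strand).
Srsf3: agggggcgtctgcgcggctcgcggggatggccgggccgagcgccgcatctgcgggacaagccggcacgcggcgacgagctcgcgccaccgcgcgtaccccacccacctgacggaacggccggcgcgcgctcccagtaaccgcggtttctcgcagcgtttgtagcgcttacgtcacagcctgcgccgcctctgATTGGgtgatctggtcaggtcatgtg
Srsf7: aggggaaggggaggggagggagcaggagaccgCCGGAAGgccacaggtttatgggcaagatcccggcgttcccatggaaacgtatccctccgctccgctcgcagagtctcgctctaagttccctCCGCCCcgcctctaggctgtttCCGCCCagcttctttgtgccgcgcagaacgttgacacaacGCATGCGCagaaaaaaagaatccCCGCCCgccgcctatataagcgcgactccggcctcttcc
Snrpa: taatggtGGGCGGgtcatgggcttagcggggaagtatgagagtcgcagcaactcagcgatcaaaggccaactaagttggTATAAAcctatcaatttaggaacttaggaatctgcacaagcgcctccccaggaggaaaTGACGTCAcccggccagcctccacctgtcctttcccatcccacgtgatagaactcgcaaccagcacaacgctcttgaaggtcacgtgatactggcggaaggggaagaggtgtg
Snrnp70: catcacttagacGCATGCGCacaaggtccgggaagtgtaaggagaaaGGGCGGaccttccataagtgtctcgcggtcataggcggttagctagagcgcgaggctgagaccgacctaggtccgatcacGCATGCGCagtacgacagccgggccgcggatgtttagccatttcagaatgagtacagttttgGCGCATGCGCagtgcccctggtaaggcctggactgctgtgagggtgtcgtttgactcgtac

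The printed Srsf3 window held an inverted CCAAT and no GC box, and a TATA box lay in the searched bases after the printed stretch, whereas the Srsf7 window held 3 GC boxes, 1 ETS core and 1 NRF1 core. The Snrpa window held a GC box, a TATA box and the cAMP response element, the last of which was present in 2 of 63 members, 2.65% of windows of tested genes and 1.62% of all windows. The Snrnp70 window held 4 matches to the NRF1 core, 2 of them overlapping, which was present in 3 of 63 members, 4.09% of windows of tested genes and 2.32% of all windows. A GC box was present in 42 of 63 member windows (66.7%), 56.8% of windows of tested genes and 32.9% of all windows. The ETS core was present in 18 (28.6%), against 1394 of 11658 windows of tested genes and 7.05% of all windows, and in 5 of 6 SF3 subunits. CCAAT was found in 12 of 17 hnRNPs and in 46.0% of members, against 35.7% of tested genes and 34.5% of all windows. The AP-1 element was found in 3 members and in none of the 17 matched genes that rose in hair cells (4.59% of windows of tested genes and 6.87% of all windows). TATAAA was found in 6 members (9.52%) and in 4 of the 17 that rose, against 6.79% of windows of tested genes and 13.0% of all windows. These are letter matches only, and no binding was measured.

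Members of a single particle were not all called alike. The minor spliceosome removes a rare class of introns with U11 and U12 snRNPs, and 2 of its 3 listed proteins rose in hair cells. Snrnp48 scored 14.2, 16.7 and 16.7 in HC controls and 27.7, 28.7 and 24.8 with gentamicin (1.71-fold, adjusted p = 0.000359). Snrnp35 scored 6.86, 5.79 and 6.62 against 8.17, 9.03 and 8.88 (1.36-fold, adjusted p = 0.0222), and Snrnp25 had overlapping groups (log2 fold change 0.11 ± 0.11). The call for Snrnp35 was lost without HC control replicate 2 or 3 or HC gentamicin replicate 2 or 3, with log2 values of 0.37, 0.46, 0.41 and 0.42, and with a replicate block.

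Snrpa1, a U2 snRNP protein, rose from 26.5, 25.4 and 25.2 to 36.0, 34.4 and 31.3 (1.32-fold, adjusted p = 0.00577). An annotated gene on the same strand shares exon sequence with it. Its partner Snrpb2 was not called (log2 fold change -0.02 ± 0.15). Snrnp40, a U5 protein, rose from 38.3, 39.6 and 37.9 to 46.2, 48.9 and 50.9 (1.26-fold, adjusted p = 0.0193). This call was lost without HC control replicate 1 or 3 or HC gentamicin replicate 2 or 3, where log2 values were 0.33, 0.32, 0.33 and 0.30. Snrnp200, the helicase that unwinds U4/U6, had 299, 289 and 273 in controls and 249, 247 and 256 with drug. Its p passed but its ratio of control to treated, 1.14, missed the fold threshold (adjusted p = 0.0344).

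None of the 8 Sm core proteins, the ring on which most snRNPs are assembled, was called in hair cells. Their median log2 fold change was -0.06. Snrpb scored 163, 158 and 148 in HC controls and 175, 171 and 161 with drug, which overlapped (log2 0.12 ± 0.08). Snrpn, its near-identical neural copy, had 48.2, 55.8 and 47.9 against 39.2, 38.2 and 33.6 (log2 -0.45 ± 0.30, adjusted p = 0.266), and among the alternatives it was called down only when the fit held the HC groups alone. Snrpn spread widely in NHC, where untreated replicates ranged from 38.9 to 70.5, and this spread enters the SE given for HC. Reads of this pair can be assigned to either copy, and Snrpn shares exons with Snurf, so both values are uncertain.

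Sf3b3, a large scaffold subunit of SF3B at chr8:110810239-110846787 (minus strand), scored 141, 128 and 142 in HC controls and 238, 271 and 236 with gentamicin. The rise was 1.81-fold (log2 0.86 ± 0.09 SE, adjusted p = 0.000115), the second largest among members. Annotated small nucleolar RNAs and an exon of Cog4 overlap it. Sf3b1, the subunit that grips the branch point, had 422, 412 and 420 in controls and 464, 485 and 448 with drug, without overlap but with a log2 fold change of only 0.16 ± 0.10 (adjusted p = 0.237). The other 6 subunits had log2 values between -0.17 and 0.27. Of the U2AF genes, U2af1 had 1.21-fold higher scores (adjusted p = 0.0448, unadjusted p above the threshold), and U2af2 went from 164 ± 0.489 (SD, n = 3) to 184 ± 6.25 (log2 0.17 ± 0.08).

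PRPF proteins act at several steps of the cycle. Prpf3, a tri-snRNP protein, scored 28.7, 26.8 and 26.0 in HC controls and 44.2, 48.2 and 44.3 with gentamicin (1.68-fold, adjusted p = 0.000244). Prpf38a and Prpf38b, of a factor needed to activate the assembled spliceosome and its paralog, rose 1.62-fold and 1.55-fold (adjusted p = 0.00058 and 0.000119). Prpf38b reached 191, 217 and 187 from 122, 126 and 136. Prpf39, related to a protein that works with U1 snRNP in yeast, also rose.

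Prpf39 had 60.9, 56.5 and 84.2 in controls and 109, 119 and 91.6 with drug, so that the groups came close without overlapping (1.60-fold, adjusted p = 0.00345). An exon of Fkbp3 on the other strand overlaps it. Prpf6, a tri-snRNP protein, rose 1.31-fold (adjusted p = 0.00201). Prpf8, Prpf19 and Prpf4b were not called. Prpf8, the core scaffold, had 491, 489 and 457 against 422, 431 and 442 (log2 -0.15 ± 0.06, adjusted p = 0.0856). Prpf19, the ubiquitin ligase of the activating complex, had 311, 311 and 291 against 283, 301 and 267 (log2 -0.10 ± 0.07), and the kinase gene Prpf4b had a log2 fold change of 0.18 ± 0.06 (adjusted p = 0.0496, not called).

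The hnRNPs that rose were Hnrnph3, Hnrnph1 and Hnrnpd, and the other 15 were not called. Hnrnph3 scored 27.2, 28.9 and 30.4 in HC controls and 43.7, 41.3 and 43.9 with gentamicin (1.49-fold, adjusted p = 0.000612). Hnrnph1 went from 357, 325 and 376 to 430, 466 and 438 (1.26-fold, adjusted p = 0.00956). Hnrnpd (AUF1), which also governs the decay of AU-rich mRNAs, went from 167, 167 and 189 to 204, 217 and 228 (1.25-fold, adjusted p = 0.0277). The call for Hnrnpd was lost without HC control replicate 1 or 2 or HC gentamicin replicate 2 or 3 (log2 0.29, 0.29, 0.31 and 0.28), and that for Hnrnph1 without HC control replicate 2 (log2 0.28). Hnrnph3 shares exon sequence with Rufy2, and Hnrnpd with an antisense gene, each on the other strand.

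The 3 hnRNPs with the highest score per kilobase in HC controls, Hnrnpa2b1, Hnrnpa3 and Hnrnpk, were not called. Hnrnpa2b1, which had the highest score per kilobase of all members in both populations, had 825, 749 and 848 in HC controls and 748, 710 and 793 with drug (log2 -0.11 ± 0.10). Hnrnpa3 had log2 -0.08 ± 0.11, Hnrnpk 0.13 ± 0.09, Hnrnpc 0.12 ± 0.07, Hnrnpu 0.01 ± 0.09 and Hnrnpa1 0.02 ± 0.12. The sign turned without HC control replicate 2 for both Hnrnpa1 (-0.0949) and Hnrnpu (-0.0610), without HC gentamicin replicate 1 for Hnrnpa1 (-0.0337) and without HC gentamicin replicate 3 for Hnrnpu (-0.0338). Hnrnpa1 has many processed copies in the genome, which makes its score uncertain. Such copies were not assessed for the other members. The summed score of the 18 hnRNPs was 5186.8 to 5798.5 in HC controls and 5649.1 to 5839.8 in HC gentamicin replicates, and these ranges overlapped.

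**Figure D2:**
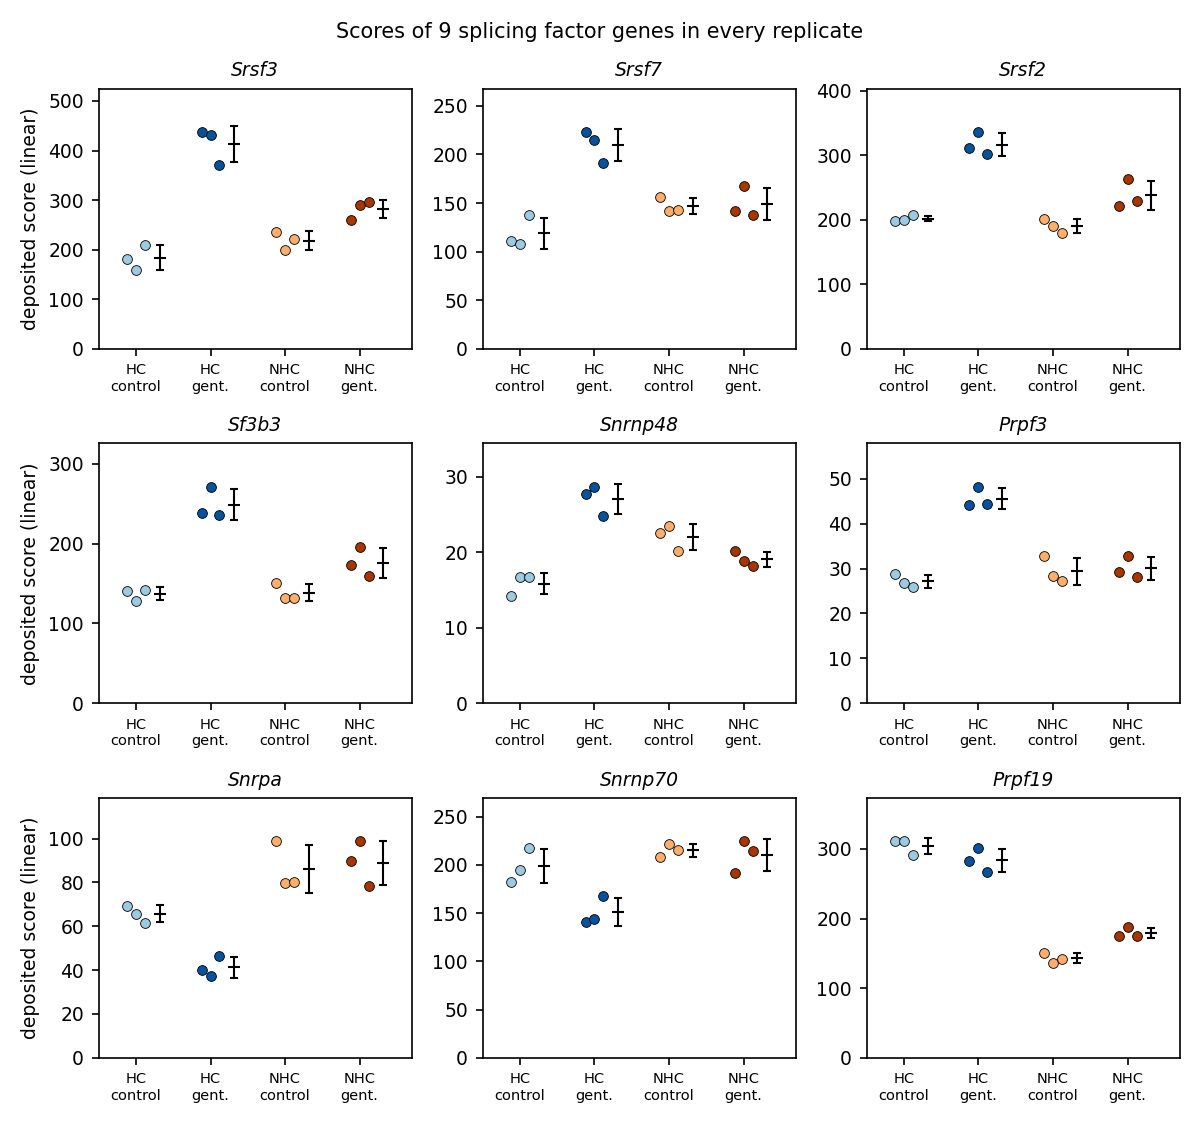
Deposited scores (vertical axis, linear from 0) of 9 genes in each replicate of the 4 groups, with mean and SD (n = 3) beside the points. Srsf3, Srsf7, Srsf2, Sf3b3, Snrnp48 and Prpf3 were higher in all HC gentamicin replicates than in all HC controls, Snrpa and Snrnp70 lower, and Prpf19 was about 2.13-fold higher in HC than in NHC controls.

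Many SR genes are known to hold exons with early stop codons, which send part of their own transcripts to nonsense-mediated decay and so adjust their level. In the GENCODE annotation such a transcript was listed for 9 of 11 SR genes (81.8%), 8 of 18 hnRNPs (44.4%), 5 of 19 snRNP proteins (26.3%) and 25.2% of the 15048 tested genes with an annotation. Among the other families it was listed for 7 of 13 PRPF proteins (53.8%), 1 of 8 SF3 subunits (12.5%) and 3 of 3 U2AF genes. It was listed for 12 of the 19 members that rose in hair cells (63.2%) and 19 of the 51 not called (37.3%). Every SR gene that rose had one, as did Srsf1, Srsf4, Srsf5 and Srsf9, which were not called. The contrast is therefore not separate from family. Snrpa and Snrnp70, the 2 members that fell, also had such a transcript listed. A retained intron transcript was listed for 14 of the 19 and 35 of the 51, beside 53.3% of tested genes with an annotation. A score sums all transcripts of a gene, so productive and decay-bound forms were not separated.

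Marker genes of other cells moved in the same comparison. The summed score of 10 supporting cell markers was 2084 to 2440 in HC controls and 981.7 to 1697 in HC gentamicin, with 4 of 10 lower and none at 0. That of 8 mesenchyme markers was 260.7 to 559.6 and 179.9 to 226.0, with 4 lower. Hair cell markers summed to 12440 to 12880 in HC controls and 10480 to 11570 in HC gentamicin, with 1 of 10 lower. Schwann cell and glia markers had 3 of 6 lower, endothelium 1 of 6, melanocytes 1 of 3 tested, and macrophages, neurons and red blood cells none, with Mlana, a melanocyte marker, at 0 in HC controls. The part of these shifts in the splicing factor values was not tested. In sorted bulk samples, fewer cells of a type and less RNA per cell cannot be told apart.

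In non-hair cells fewer members were called. By the same criteria 10 members rose and 1 fell, where 3.18% of tested genes rose and 2.26% fell. At an adjusted p below 0.05 limma called 0 members, where 0.236% of tested genes rose and 0.106% fell, and 26 of 72 members had an unadjusted p below 0.05, as did 17.1% of tested genes. The calls therefore rest on the unadjusted threshold. They also depended on single libraries: 16 members rose without NHC control replicate 1 or NHC gentamicin replicate 3, and 4, 6 and 3 rose without NHC control replicate 2, NHC control replicate 3 and NHC gentamicin replicate 2. With only the NHC groups in the fit, so that the spread was not pooled with HC, 4 members rose and 1 fell. Under total-read scaling 15 rose and 1 fell, and the split over all called genes moved from 58.4% to 69.1% up.

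The NHC median log2 fold change was 0.25 for SF3 subunits, 0.21 for hnRNPs, 0.17 for U2AF genes, 0.10 for snRNP proteins, 0.07 for SR proteins and 0.06 for PRPF proteins, beside -0.01 for all tested genes. Single libraries moved these medians, so no order is read from them. All 6 were lowest without NHC gentamicin replicate 2, at 0.18, 0.14, 0.10, 0.04, -0.01 and 0.04 in the same sequence. Their highest values were 0.33 for SF3 subunits and 0.24 for U2AF genes without NHC gentamicin replicate 3, 0.25 for hnRNPs, 0.23 for snRNP proteins and 0.10 for PRPF proteins without NHC control replicate 1, and 0.12 for SR proteins without NHC gentamicin replicate 1. All 18 hnRNP values were above 0, beside 7852 of 16087 tested genes, and they come from the same replicates. Only 4 were called. These were Hnrnpd, Hnrnpab, Hnrnpa0 and Hnrnpr. Hnrnpd scored 141, 137 and 138 in NHC controls and 169, 219 and 173 with drug (1.34-fold, adjusted p = 0.0806). The summed family score was 4833.9 to 5296.6 in NHC controls and 5473.9 to 6321.0 with drug, and was highest in NHC gentamicin replicate 2, one of the libraries that stood apart.

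Prpf31, a U4/U6 protein whose human counterpart is mutated in retinitis pigmentosa, scored 35.8, 30.6 and 36.2 in NHC controls and 43.4, 47.8 and 44.8 with drug (1.33-fold, adjusted p = 0.0806). Prpf19 had 150, 136 and 143 against 175, 187 and 175 (1.26-fold, adjusted p = 0.0651). Srsf5 was the member that fell, from 368, 395 and 352 to 298, 283 and 309 (log2 -0.32 ± 0.09, adjusted p = 0.114), and its call was lost without NHC control replicate 2 or NHC gentamicin replicate 2 (log2 -0.28 and -0.29). Snrpa scored 98.7, 79.6 and 80.3 in NHC controls and 89.6, 98.8 and 78.6 with drug, and Snrnp70 had 208, 221 and 216 against 192, 224 and 214. Both overlapped, with log2 values of 0.05 ± 0.11 and -0.04 ± 0.09. Srsf2, Srsf3, Sf3b3 and Hnrnpd rose in both populations, 21.1% of the HC list and 40.0% of the NHC list. Of all members 26.4% rose in HC and 13.9% in NHC. The share of tested genes that rose in both was not counted, and the overlap was not tested.

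The difference between the 2 responses was tested by the interaction of drug and population. At an adjusted p below 0.05 it was called for 15 members. In 11 the hair cell change lay above the NHC change and in 4 below it, beside 6.85% and 6.56% of tested genes. Snrnp48 had the widest gap, 0.98 ± 0.15 log2 units (adjusted p = 0.00353): it rose in HC, while its NHC scores were 22.5, 23.4 and 20.2 without drug and 20.2, 18.9 and 18.2 with it. Prpf38b had the smallest adjusted p, 0.00231, with a gap of 0.71 ± 0.10. For Srsf7 and Srsf3 the gaps were 0.81 ± 0.15 and 0.80 ± 0.16 (adjusted p = 0.00812 and 0.00909). For Prpf3 it was 0.72 ± 0.13 (adjusted p = 0.00753).

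Prpf3, Prpf38a, Prpf38b and Prpf39 were among the genes with a higher response in HC. Prpf19, Prpf31, Hnrnpa0 and Snrpa had the lower response in HC. For Prpf19, Prpf31 and Hnrnpa0 this came with a call in NHC and log2 values between -0.17 and -0.06 in HC. For Snrpa it came with the fall in HC, a gap of -0.72 ± 0.16 (adjusted p = 0.0162). The gap for Snrnp70, -0.36 ± 0.13, missed the threshold (adjusted p = 0.0866). Srsf2 and Srsf6, which rose in HC, also missed it (gaps of 0.33 ± 0.11 and 0.34 ± 0.12, adjusted p = 0.0713 and 0.0824), so a difference between populations is not shown for them. Single libraries moved these counts: 6 members above were called without HC control replicate 1, HC control replicate 2 or HC gentamicin replicate 2, and 7 without NHC gentamicin replicate 1. Those below numbered 2 without HC control replicate 1 or 3, HC gentamicin replicate 1 or 2, NHC control replicate 2 or NHC gentamicin replicate 2.

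**Figure D3:**
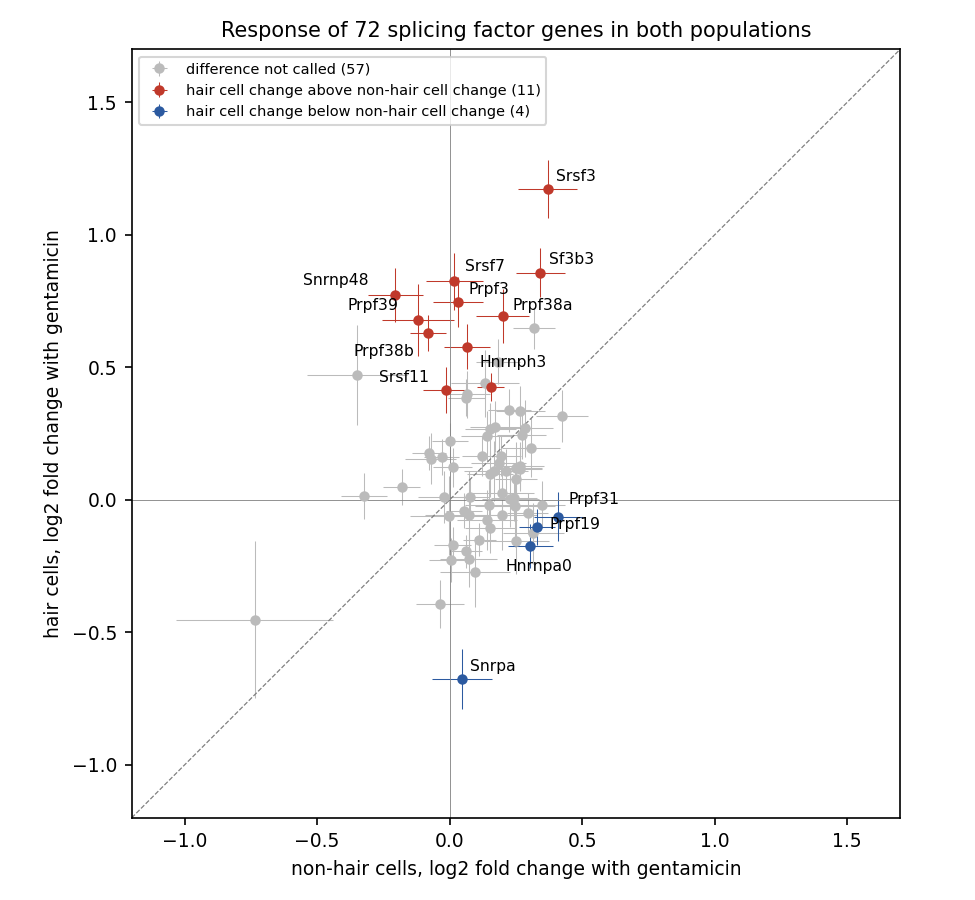
Log2 fold change with gentamicin in non-hair cells (horizontal) and hair cells (vertical) for 72 genes, with standard errors and the line of equal change. Red marks the 11 genes whose hair cell change was above the non-hair cell change at an adjusted p below 0.05, blue the 4 below it, and grey the 57 not called.

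Without drug, splicing factor levels differed between the populations in both directions. At an adjusted p below 0.05, 20 members were higher in HC and 23 lower, beside 31.9% and 42.2% of tested genes, so that neither count (27.8% and 31.9% of members) exceeded the background. With scaling by the median of ratios the counts were 25 and 15. By family, 8 of 18 hnRNPs and 6 of 13 PRPF proteins were higher in HC and no SR protein was. In the other direction 10 of 19 snRNP proteins and 4 of 11 SR proteins were lower.

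Snrnp25, a U11/U12 protein, stood out. It scored 72.6, 72.1 and 73.2 in HC controls and 16.5, 14.9 and 13.0 in NHC controls, 4.92-fold higher in HC (adjusted p = 7.95e-09). The other minor spliceosome proteins went the other way. Snrnp48 was 1.39-fold and Snrnp35 1.34-fold lower in HC (adjusted p = 0.00135 and 0.0102). Prpf18, which acts at the last step of catalysis, scored 118, 112 and 116 in HC and 45.0, 45.2 and 46.1 in NHC controls (2.54-fold, adjusted p = 8.87e-09).

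Prpf19 scored 311, 311 and 291 in HC and 150, 136 and 143 in NHC controls (2.13-fold, adjusted p = 5.09e-08). Hnrnpa3 was 1.58-fold higher in HC (379, 350 and 427 against 228, 249 and 251, adjusted p = 0.000231). A microRNA is annotated within an exon of Hnrnpa3. These 4 genes were the highest in HC relative to NHC.

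Of the 8 Sm core proteins 4 were lower in HC and 1 was higher. Snrpg had 31.0, 28.3 and 28.6 in HC and 77.2, 52.6 and 55.9 in NHC controls (2.09-fold lower in HC, adjusted p = 4.86e-05). Snrpe had 24.5, 25.1 and 24.6 against 66.4, 43.9 and 43.5 (2.03-fold lower, adjusted p = 0.000154). NHC control replicate 1 was the high value in each, yet the other NHC replicates were also above every HC control. Snrpb2 of U2 snRNP was 1.62-fold lower in HC, and Srsf12, a weakly expressed SR-related repressor, 1.58-fold lower (adjusted p = 0.00142 and 0.00769). In contrast Snrpb was 1.25-fold higher in HC (adjusted p = 0.00425).

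**Figure D4:**
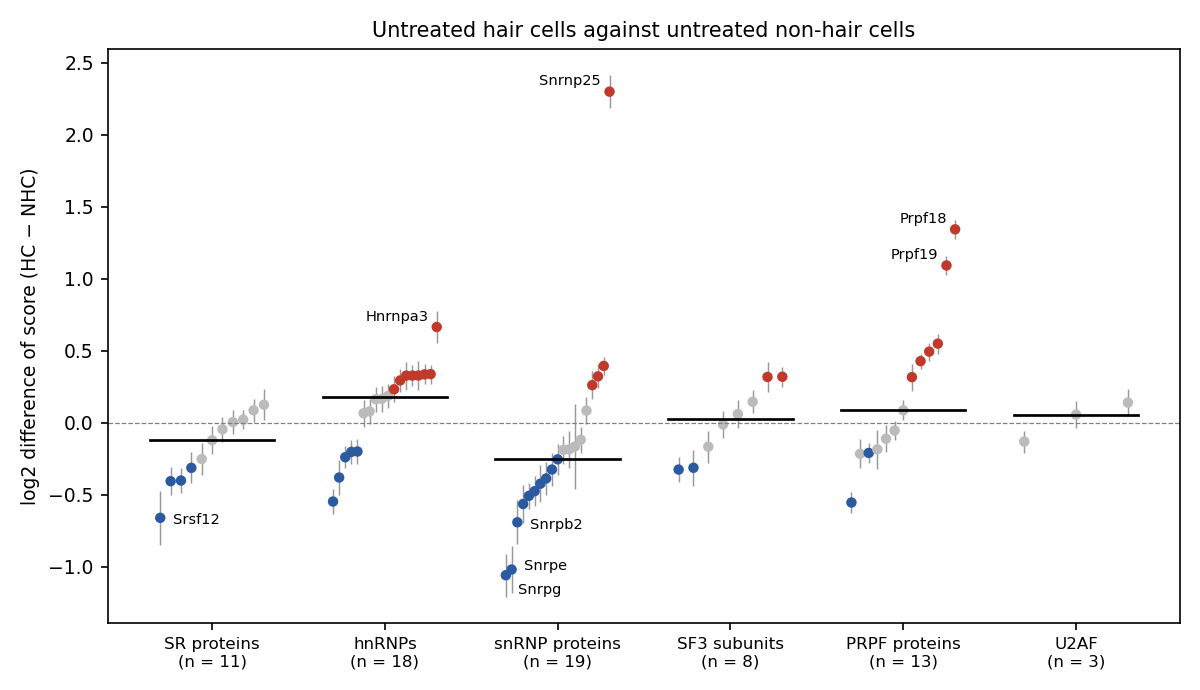
Log2 difference of the score between untreated hair cells and untreated non-hair cells (vertical axis, with standard error) for the 72 genes by family. Red points were higher and blue points lower in hair cells at an adjusted p below 0.05, and black bars are family medians. Snrnp25, Prpf18 and Prpf19 were the 3 highest, Snrpg and Snrpe the 2 lowest.

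Levels can be compared between genes only per length. The length used is that of a single annotated transcript, from 503 to 21452 bases, whereas a score sums all transcripts of a gene. Ranks by score per kilobase, here and above, depend on that choice. On the scale of score per kilobase of the principal transcript, HC controls reached 485.3 for Hnrnpa2b1, 232.4 for Hnrnpa3, 228.7 for Srsf5 and 207.1 for Hnrnpk. NHC controls had 463.7 for Hnrnpa2b1, 236.4 for Srsf5 and 176.5 for Hnrnpk. Srsf3 stood at 69.9 in HC controls and Sf3b3 at 30.1, while Snrnp48 and Snrnp35 lay at 8.31 and 4.59, among the lowest of all members. The 72 genes together took 1.08% to 1.15% of all scores in HC controls and 1.31% in each of the HC gentamicin replicates. Their summed score was 11119 to 11918 in HC controls and 12546 to 12770 in HC gentamicin. A share also depends on the total of all scores, which was not held equal between replicates. In NHC the share was 1.035% to 1.101% without drug and 1.13% to 1.28% with it.

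Other genes of the splicing machinery were read from lists, called by the same criteria. Over all tested genes 12.7% rose and 14.8% fell in hair cells. Among 24 SR-related proteins and SR protein kinases, 8 rose and 1 fell in hair cells. Clk4 and Clk1, kinases that phosphorylate SR proteins, rose by 1.41 ± 0.11 and 1.02 ± 0.15 on the log2 scale, and Tra2b, an SR-like splicing activator, by 1.37 ± 0.11 (adjusted p = 2.1e-05, 0.000613 and 2.1e-05). Tra2b went from a mean score of 94.8 ± 6.28 to 245 ± 24.5 (SD, n = 3). The log2 values of Clk4 and Tra2b were above that of Srsf3, the highest of the 72 members.

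Among 55 other spliceosome components 14 rose and none fell, led by Smndc1, Zrsr1 and Dhx15 with log2 fold changes of 0.94 ± 0.10, 0.81 ± 0.12 and 0.61 ± 0.07. Of 16 snRNP assembly factors 9 rose and 2 fell. Both lists stand beside 12.7% up and 14.8% down over all tested genes. Coil, the marker of Cajal bodies where snRNPs mature, rose by 0.73 ± 0.08, Gemin2 by 0.56 ± 0.18 and Ddx20 by 0.55 ± 0.11. None of the Sm proteins that these factors load was called.

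Among 45 other RNA-binding splicing regulators 10 rose and 6 fell in hair cells, beside 12.7% and 14.8% of tested genes. Ptbp2, the neural polypyrimidine tract binder, rose from 37.1 ± 6.25 to 113 ± 15.7 (log2 1.61 ± 0.13, adjusted p = 2.84e-05), more than any member of the 72. Celf5 and Nova2, regulators of neural exons, fell, with log2 fold changes of -1.34 ± 0.29 and -1.095 ± 0.20 (adjusted p = 0.00525 and 0.00231). The 5 tested neuron markers had a median log2 fold change of -1.10 in the same comparison, with none called. Summed over 6 neuron markers, the score was 972.8 to 1166 in HC controls and 914.7 to 1070 in HC gentamicin. The part of such shifts in the values of Celf5 and Nova2 was not tested. Srrm4 had 278 ± 16.2 in HC controls, 282 ± 29.2 in HC gentamicin and 11.4 ± 3.77 in NHC controls. No change was called in hair cells (log2 0.02 ± 0.32). The SE of 0.32 pools all 4 groups, including the low and variable NHC scores, so it is not the spread of HC alone.

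In NHC the same lists gave 1 up and 3 down, 5 up and 1 down, 2 up and no gene down, and 6 up and 4 down. Over all tested genes 3.18% rose and 2.26% fell in NHC. Of the genes named here, none had a limma adjusted p below 0.05. Tra2b rose by 0.34 ± 0.11, Srrm1 and Clasrp fell by 0.34 and 0.31, and Luc7l fell by 0.45 on the log2 scale. Lsm4 rose by 0.47 ± 0.13, Crnkl1 by 0.41 ± 0.09, Gemin5 by 0.41 ± 0.08 and Prmt5 by 0.34 ± 0.08. Rbfox3, Celf5 and Nova2 fell by 1.16, 0.91 and 0.63, with standard errors of 0.35, 0.29 and 0.20. Summed neuron markers ranged from 487.9 to 1312 in NHC controls and from 228.5 to 907.0 in NHC gentamicin, and their part in the values of these neural regulators was not tested.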

How the data were processed

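RNA from sorted cells was made into polyA libraries (Illumina kit) and the reads were aligned to mm10 with TopHat2, per the labels and the submitters' processing notes. The authors deposited, for each of 4 groups, a table of 3 replicate scores per gene. The scores are reads on a gene scaled between libraries with 1 added. They show no division by length, and 80.0% to 81.5% of low values came out as whole reads (tolerance 0.05 reads), so no count test was run. Whether counting used strand is not given in the sources used here. Scores were taken to log2, genes with at least 100 recovered reads over 12 replicates were kept (16087 of 23420), and limma 3.58.1 (R 4.3.3) was fitted to the 4 groups together with its variance trend and Benjamini-Hochberg adjustment over all tested genes. The spread of each gene was pooled over the 4 groups. Its SE was therefore the same for both drug responses, although NHC replicates differed more than HC replicates. A fold change is on the scale of log2(score), which includes the added 1 and understates low genes. Responses were called at an unadjusted p below 0.01 with a fold above 1.2, after the study's criteria, and the interaction and the untreated populations at an adjusted p below 0.05. The fit was tested on simulated data with independent replicates and the same spread in all 4 groups. It therefore did not cover the unequal spread of HC and NHC or shifts of whole libraries.

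Replicate numbers are those in the column headers. Between HC and NHC controls the deviations of samples with the same number correlated at 0.216, 0.316 and 0.200. Those of samples with different numbers correlated at -0.27 to -0.055. The numbers may therefore pair the samples there, but deviations within a group of 3 sum to 0, which ties these values together. The main fit did not use pairing. Genes were placed on mm10 with GENCODE vM21, and overlaps and transcript classes were read from it. Named genes were those called with the largest changes in each family (up to 4 a direction in HC, 3 in NHC, 6 for the interaction, 4 a direction between untreated populations), a set of genes with central roles whatever their change, and up to 3 called genes a list. Genes of a particle and other exceptions were named after their values were seen. The members, families, particles and lists were chosen with earlier results of these data known. A few single genes are counted but not reported by name here. Alternatives were scaling, offset, read minimum, thresholds, samples in the fit, a replicate block and leaving out each replicate. The authors' RPKM wording was not followed, because the values do not scale with length.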

Additional observations from a re-analysis of the deposited data

Results flagged for a closer look

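The response to gentamicin differed between hair cells and non-hair cells for 15 splicing factor genes by the interaction test (limma, adjusted p below 0.05), which is what marked them. Given as the hair cell change minus the non-hair cell change on the log2 scale, the difference was 0.9784 for Snrnp48, 0.8057 for Srsf7, 0.8026 for Srsf3, 0.7963 for Prpf39, 0.7153 for Prpf3 and 0.7099 for Prpf38b. It was 0.5148 for Sf3b3, 0.5127 for Hnrnph3, 0.4941 for Prpf38a and 0.4289 for Srsf11. It was negative for Snrpa (-0.7221), Hnrnpa0 (-0.4778), Prpf31 (-0.4735) and Prpf19 (-0.4317). In the first set the NHC value lay between -0.21 and 0.37, and Srsf3 and Sf3b3 were also called up in NHC. Outlying samples were not flagged gene by gene, because groups of 3 replicates are too small for it. The distances of whole replicates from their groups are given above.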

How the results depend on the processing

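The offset, the read minimum and the replicate block left all counts of called members within 1.5 times the reported ones, and named genes kept their direction under every alternative but the omission of single replicates. A fold threshold of 1.5 left 9 members up and 1 down in hair cells, 0 and 0 in non-hair cells, 6 and 1 for the difference between responses, and 4 higher and 4 lower between untreated populations. In non-hair cells an adjusted p below 0.05 left 0 up and 0 down, and fitting only the groups compared left 4 up. Scaling by total reads gave 18 members with a higher response in hair cells, and scaling by the median of ratios gave 15 lower in untreated hair cells. Among members without exon overlap, an alternative chosen after seeing the data, 13 rose and 1 fell in hair cells; this tests fewer genes. Taken relative to the median of all tested genes, also chosen after seeing the data, 20 rose and 2 fell.

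Total-read scaling raised hair cell medians to 0.21 for all members, 0.51 for SR proteins, 0.11 for hnRNPs, 0.0687 for snRNP proteins, 0.22 for SF3 subunits, 0.32 for PRPF proteins and 0.26 for U2AF. Leaving out single replicates gave 16 to 20 members up and 2 down in hair cells, 3 to 16 up and 0 to 2 down in non-hair cells, and 6 to 13 above and 2 to 5 below for the difference. In hair cells Hnrnpa1 ranged from -0.0949 to 0.15 and Hnrnpu from -0.0610 to 0.0579. Causes of these shifts were not tested. The numbers showed no clear pairing of samples within either drug comparison (correlations of 0.0367, 0.0522 and 0.0369 in HC, and 0.208, -0.232 and 0.683 in NHC). A replicate block gave 19 up and 2 down in HC, 11 up and 1 down in NHC, 12 and 5 for the difference and 21 higher and 22 lower between untreated populations. Snrnp35 alone among named genes lost its call under it, and U2af1 gained one in HC.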
